A study of Mus musculus with 16 samples.

Results

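The NF-kappaB subunits and inhibitors were described in cDC1, the conventional dendritic cells known for taking up dead cells and showing their antigens to CD8 T cells. The 10 genes were chosen by name: the subunit genes Nfkb1, Nfkb2, Rela, Relb and Rel, and the inhibitor or IkappaB-like genes Nfkbia, Nfkbie, Nfkbiz, Tnfaip3 and Bcl3. Of these, 9 had a probe set that carried their symbol alone and were measured among 19938 genes. Nfkb1 was not analysed here. Each of the 9 was read by 1 probe set of an Affymetrix Mouse Gene 1.0 ST array.

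All mice were C57BL/6 and had received regressor tumors, which immunocompetent mice reject, in the back flank 6 days before harvest. The cells carried the genotype WDFY4 Het or WDFY4 KO. WDFY4 belongs to the BEACH-domain proteins and is required for cross-presentation of cell-associated antigen by this cell type. The cells were sorted from the inguinal lymph node of the tumor-draining or the non-draining flank after digestion with Collagenase B and DNaseI. This gave 4 groups of 4 arrays: Het draining, KO draining, Het non-draining and KO non-draining. All 4 groups come from tumor-bearing mice, and the Het cells are the control. The labels give no age, and they do not say whether arrays of a group came from separate or pooled mice, so p-values measure only the spread between these samples. The arrays of each group are numbered 1 to 4, and the labels do not say what the numbers stand for.

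NF-kappaB is a family of dimeric transcription factors built from RelA, RelB, c-Rel, p50 and p52. In the canonical pathway, IkappaB proteins hold dimers of RelA or c-Rel in the cytoplasm until IkappaB kinase marks them for destruction. In the alternative pathway, NIK and IKKalpha drive the processing of p100, the product of Nfkb2, so that RelB-p52 dimers enter the nucleus. Several members are themselves switched on by NF-kappaB and close feedback loops, and RelB and c-Rel are known for their roles in dendritic cell maturation and cytokine production.

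Because these genes are known feedback targets, their promoters are shown with the kappaB consensus, a motif of 10 bases searched by name on both strands in the 250 bases before each start. RefSeq promoters (GRCm38.p6) were matched by symbol for 7 of the 10 genes. A match lay in 5 of those 7, namely Nfkb2, Rel, Nfkbia, Nfkbie and Tnfaip3, and in 8.23% of 27025 genes. No match was found in the windows of Rela and Bcl3. The stretches of 30 bases below run 5′ to 3′ on the gene's strand, and capitals mark the match. Where matches on both strands overlapped, they are capitalised together.
Nfkb2, chr19:46304688-46304717, plus strand: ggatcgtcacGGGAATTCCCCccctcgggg
Rel, chr11:23771042-23771071, minus strand: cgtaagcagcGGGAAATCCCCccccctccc
Nfkbia, chr12:55492657-55492686, minus strand: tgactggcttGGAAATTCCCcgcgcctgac
Nfkbie, chr17:45555584-45555613, plus strand: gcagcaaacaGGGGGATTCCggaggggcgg
Tnfaip3, chr10:19015516-19015545, minus strand: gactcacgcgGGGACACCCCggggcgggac
Tnfaip3, chr10:19015411-19015440, minus strand: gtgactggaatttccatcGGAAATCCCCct
The last Tnfaip3 match ended 3 bases before the start, and that of Nfkbia 20 bases before it. Nfkb2 held a second match at the same start, 2 bases before it (chr19:46304707-46304736), and 1 match at each of its other starts. These matches are a description of the letters and not of binding.

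The label cDC1 was checked on its markers. Over the 16 arrays the intensity (the array's linear brightness after normalization) of Xcr1 lay between 1240.4 and 2495 and that of Clec9a between 1031 and 1777, against array medians of 38.6 to 40.8. All 16 measured cDC1 markers, a list that includes Wdfy4 itself, were above the highest array median in every array. So were all 11 T cell markers, 5 of 11 B cell markers and 3 of 7 cDC2 markers. Of these, Cd3g read 155 to 889, Cd3e 94.4 to 279 and the B cell marker Fcrla 144 to 304. The B cell marker Cd79a read 30.7 to 124 and was not among the 5. Of the cDC2 markers, Sirpa read 67.2 to 171, Cd209a 49.6 to 117 and Itgam 20.9 to 33.8. Of 10 measured macrophage and monocyte markers, Lyz2 read 354 to 811 and Ccr2 178 to 471. Others of that list were dimmer, such as Fcgr1 (23.8 to 31.3) and Mertk (16.5 to 24.7). The mean log2 level of 5 plasmacytoid dendritic cell markers ran from 7.31 to 7.76 over the arrays. Signal of other cell types' markers was thus present in all arrays. Of 8 measured markers of migratory dendritic cells, 7 were also above the highest array median in every array. Among them Ccr7 read 3354 to 5731 and Fscn1 3065 to 6739. The Wdfy4 probe set read 2463 to 3450 in Het draining, 1786 to 2785 in KO draining, 2278 to 3332 in Het non-draining and 1923 to 3165 in KO non-draining cells. The labels do not name the deleted part of the gene, so this does not check the genotype. In bulk samples such as these, fewer cells of a type and less RNA per cell cannot be told apart.

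**Figure D1:**
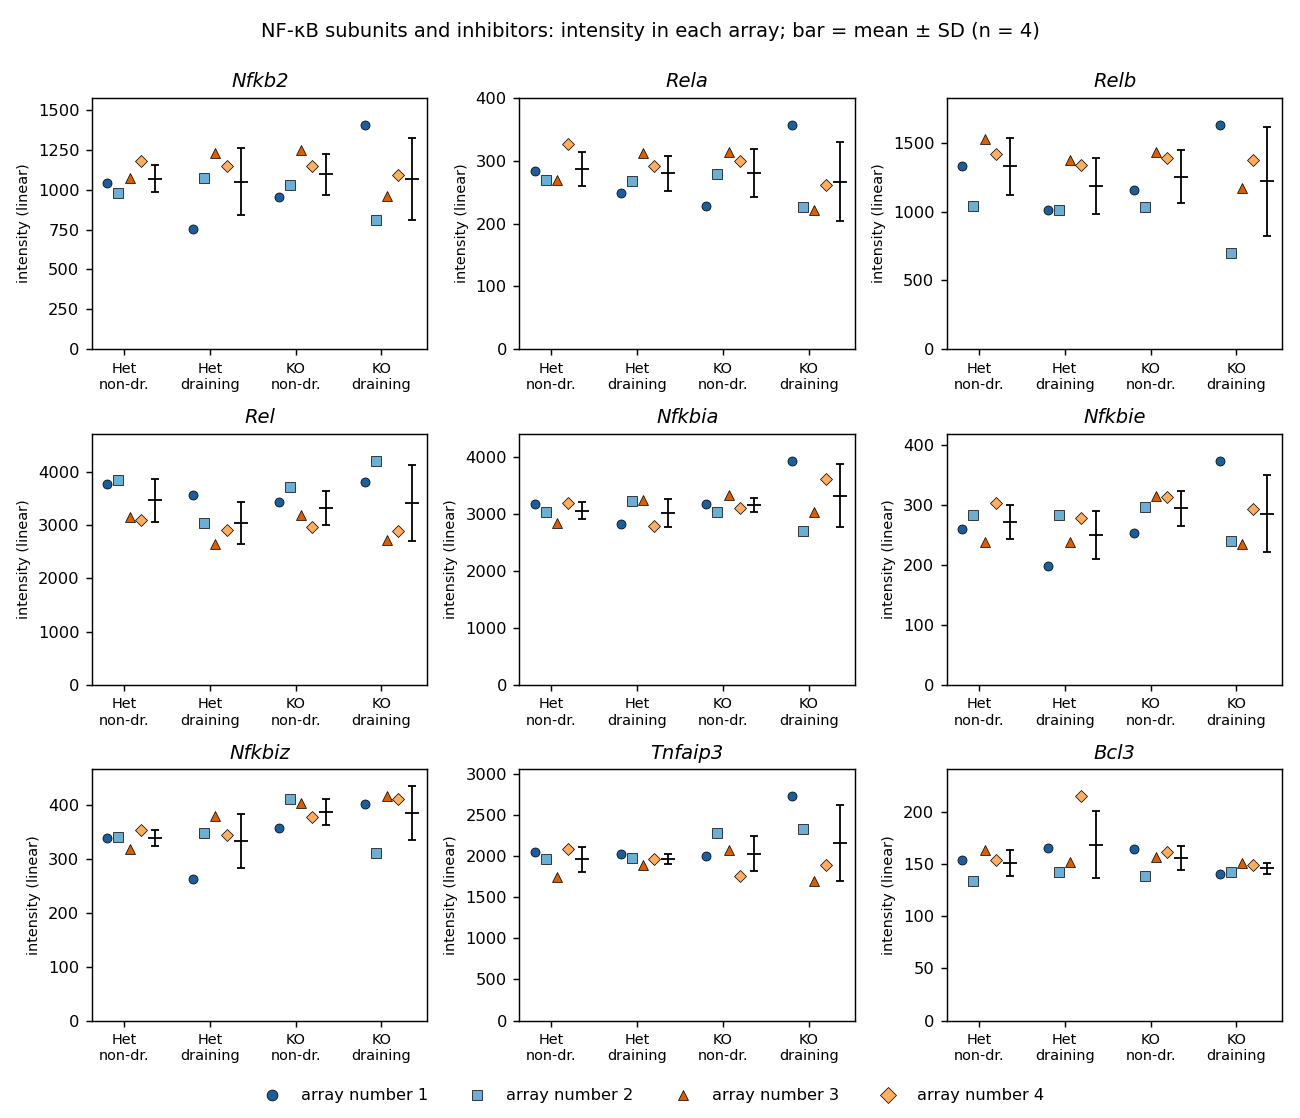
Intensity on a linear scale (y axis) of the 9 measured NF-kappaB genes in each of the 16 arrays, by group (x axis), with the symbol giving the array number and the bar the mean ± SD (n = 4). The groups overlap in every panel except Nfkbiz in the non-draining node, where the 4 KO arrays (358 to 411) lie above the 4 Het arrays (318 to 354).

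The first question was whether the loss of WDFY4 was accompanied by a change of these genes in either node. With limma, 0 of the 9 members passed the threshold, an adjusted p under 0.05, when draining KO and Het cells were compared. The same count was 0 of 9 in the non-draining node. Over all genes it was 0% in both comparisons, so a count of 0 does not set the members apart. At an unadjusted p under 0.05 the count was again 0 of 9 in each node, beside 3.39% of all genes for draining and 2.48% for non-draining cells. The median log2 difference of the members was 0.11 in the draining node, with 6 members higher and 3 lower, beside -0.003 over all genes. Its direction rested on some arrays: it was -0.02 without KO draining arrays 1 and 2 and -0.10 with arrays 3 and 4 alone. For non-draining cells it was 0.04, also with 6 higher and 3 lower, beside 0.005 over all genes.

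Nfkbiz, which encodes IkappaBzeta, an inducible nuclear IkappaB that works with p50 on secondary response genes, was the one member whose genotype groups did not overlap in a node. In the non-draining node the Het arrays read 339, 341, 318 and 354, and the KO arrays read 358, 411, 403 and 379. All 4 KO arrays were above all 4 Het arrays. The difference was 0.20 ± 0.12 (log2, SE), and its adjusted p in limma was 1 (unadjusted 0.109). An exact two-sided permutation of the arrays gave p = 0.0286, which is as low as 8 arrays in equal groups can go. Any gene without overlap has this p, so it restates the order of the arrays and adds nothing to it. Groups did not overlap for 2.39% of all genes in this comparison, and for 1 of the 9 members.

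In the draining node Nfkbiz read 263, 347, 379.8 and 344 in the Het arrays and 402, 312, 416 and 411 in the KO arrays. Of the 4 KO arrays, 3 lay above every Het array, and array 2 lay below 3 of the Het arrays, so the groups overlapped. The difference was 0.21 ± 0.12 (adjusted p = 1.00 in limma), and it was 0.10 without Het draining array 1 and 0.31 without KO draining array 2. In the draining comparison the groups did not overlap for 0 members, beside 1.58% of all genes.

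Averaged over both nodes, the Nfkbiz difference was 0.20 ± 0.08 (log2, SE) over 16 arrays. Its unadjusted p in limma was 0.0239, the one value under 0.05 among the members. After adjustment it was 1, and over the alternatives run the lowest adjusted p was 0.397. That is 1 of 9 members, beside 3.49% of all genes at the same unadjusted threshold, and 0% at the adjusted one. The 95% interval ran from 0.03 to 0.38. Arrays numbered 1 and 2 alone gave 0.20, and those numbered 3 and 4 gave 0.21.

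A list of immediate early and heat shock genes, which tissue digestion is known to switch on, mostly had higher values in the KO groups. Of 23 measured genes of this list, 22 were higher and 1 lower in the draining node, with 11 at an unadjusted p under 0.05, all higher, and a median difference of 0.32 (log2). Of all genes 3.39% were at that threshold, 337 higher and 338 lower. Non-draining cells had 20 of them higher and 3 lower, with 9 at that threshold, all higher, and a median of 0.25, beside 2.48% of all genes, 259 higher and 235 lower. The smallest p in the list was that of the chaperone gene Hsph1, with 0.56 ± 0.17 in draining and 1.00 ± 0.17 in non-draining cells (log2, SE; adjusted p = 1.00 and 0.333 in limma). In neither node did a gene of the list pass the adjusted threshold. The list's mean log2 level ran from 8.92 to 9.31 in Het draining and from 9.34 to 9.56 in KO draining arrays. It ran from 9.05 to 9.34 in Het non-draining and from 9.32 to 9.61 in KO non-draining arrays. Fos and Zfp36, both in the list, were among the 3 genes whose values followed Nfkbiz most closely over the 16 arrays, as given further on. Of 11 B cell markers, 9 were higher in KO cells over both nodes, with a median of 0.32. In limma 4 of them had an unadjusted p under 0.05, beside 3.49% of all genes, and none passed after adjustment. In the draining node 8 B cell markers were higher, with a median of 0.12, and in the non-draining node 10, with a median of 0.33. Their mean log2 level ran from 5.65 to 6.38 in Het non-draining and from 5.96 to 6.54 in KO non-draining arrays. In KO non-draining cells 13 of 16 cDC1 markers were higher and 3 lower, with a median of 0.21. Of these, 4 had an unadjusted p under 0.05 in limma, all higher. All 11 T cell markers were lower there, with a median of -0.38. In the draining node 6 cDC1 markers were higher and 10 lower, with a median of -0.02, and 10 of 11 T cell markers were higher. The cDC1 counts include Wdfy4 itself. Its median intensity was 2219 in KO and 2958 in Het draining cells, and 2206 and 2804 in non-draining cells. The part of these lists in the Nfkbiz difference was not tested.

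**Figure D2:**
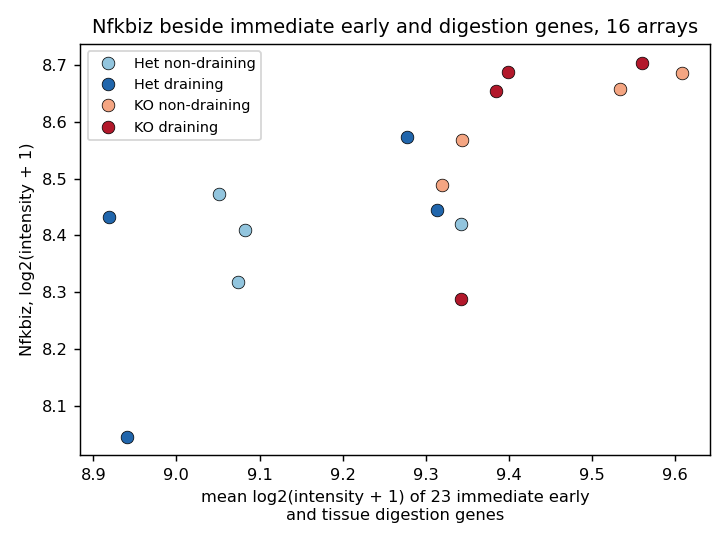
Log2(intensity + 1) of Nfkbiz (y axis) against the mean log2(intensity + 1) of 23 immediate early and tissue digestion genes (x axis), 1 point per array, coloured by group. The Het draining arrays span 8.92 to 9.31 on the x axis and the KO draining arrays 9.34 to 9.56.

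Among the subunits, the genotype difference in the draining node was larger than its standard error for Rel alone. Rel, which encodes c-Rel, read 3565, 3041, 2637 and 2909 in Het draining arrays and 3814, 4211, 2723 and 2894 in KO draining arrays. Arrays 1 and 2 of the KO group were the highest and arrays 3 and 4 lay within the Het range. The difference was 0.15 ± 0.14 (log2, SE), 0.04 without KO draining array 2, and -0.11 without KO draining arrays 1 and 2. Relb, the partner of p52 in the alternative pathway, read 1012, 1012, 1379 and 1339 in Het draining and 1633, 699.8, 1171 and 1375 in KO draining arrays. The KO arrays spread on both sides of the Het arrays, and the difference was -0.01 ± 0.21 with a 95% interval from -0.46 to 0.44.

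Nfkb2, the p100 precursor, read 754, 1077, 1229 and 1148 in Het draining and 1409.7, 810.5, 960.2 and 1092 in KO draining arrays, a difference of 0.02 ± 0.16. Rela, the main activating subunit of the canonical pathway, read 248, 268, 313 and 291 in Het draining and 358, 226, 222 and 262 in KO draining arrays. For both genes KO array 1 was above every Het array and the other KO arrays lay within or below the Het range. In the non-draining node the subunit differences between genotypes were 0.03 ± 0.16 for Nfkb2, -0.04 ± 0.14 for Rela, -0.08 ± 0.21 for Relb and -0.06 ± 0.14 for Rel. Of the 9 intervals there, that of Relb was the widest, from -0.53 to 0.37.

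The values of the subunits in the non-draining node show the same overlap. Nfkb2 lay between 981 and 1184 in Het and between 954 and 1251 in KO arrays, and Rela between 269.8 and 328 and between 228 and 315. Relb lay between 1042 and 1525 in Het and between 1034 and 1437 in KO arrays. In each case the KO arrays reached below the lowest Het array. Rel read 3439, 3708, 3183 and 2954 in KO non-draining arrays, also with arrays 1 and 2 above arrays 3 and 4.

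Among the inhibitors, Nfkbia, which encodes IkappaBalpha, the fast feedback inhibitor, read 2828, 3232, 3239 and 2789.9 in Het draining and 3936, 2697, 3040.3 and 3612 in KO draining arrays. Arrays 1 and 4 of the KO group were above every Het array and array 2 was below them all. The difference was 0.12 ± 0.11 (log2, SE), and 0.04 without KO draining array 1. In the non-draining node the means were 3059 ± 156 in Het and 3156 ± 128 in KO arrays (intensity, SD, n = 4).

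Nfkbie, which encodes IkappaBepsilon, read 198, 284, 239 and 279 in Het draining and 375, 241, 235 and 294 in KO draining arrays. The difference of 0.18 ± 0.15 was 0.04 without KO draining array 1, the highest of the 16 arrays. Tnfaip3, which encodes A20, a ubiquitin-editing enzyme that shuts off signalling upstream of IkappaB kinase, read 2028, 1973, 1891 and 1966 in Het draining arrays. Its KO draining values were 2727, 2325, 1696 and 1889, so the KO arrays lay on both sides of a narrow Het range. The SD was 56.3 in Het and 461 in KO draining arrays. In the non-draining node Nfkbie lay between 239 and 305 in Het and between 253 and 315 in KO arrays, and Tnfaip3 between 1749.8 and 2089 and between 1762 and 2281. The differences there were 0.12 ± 0.15 for Nfkbie and 0.04 ± 0.13 for Tnfaip3.

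Bcl3, a nuclear IkappaB-like protein that binds p50 and p52 homodimers, was the member with the largest negative difference in the draining node. It read 165, 143, 152 and 215 in Het draining and 140.4, 143, 151 and 149 in KO draining arrays. The difference was -0.19 ± 0.11 (log2, SE), and -0.07 without Het draining array 4, the highest of the 16. In the non-draining node the means were 151 ± 12.6 in Het and 155 ± 11.5 in KO arrays (intensity, SD, n = 4).

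**Figure D3:**
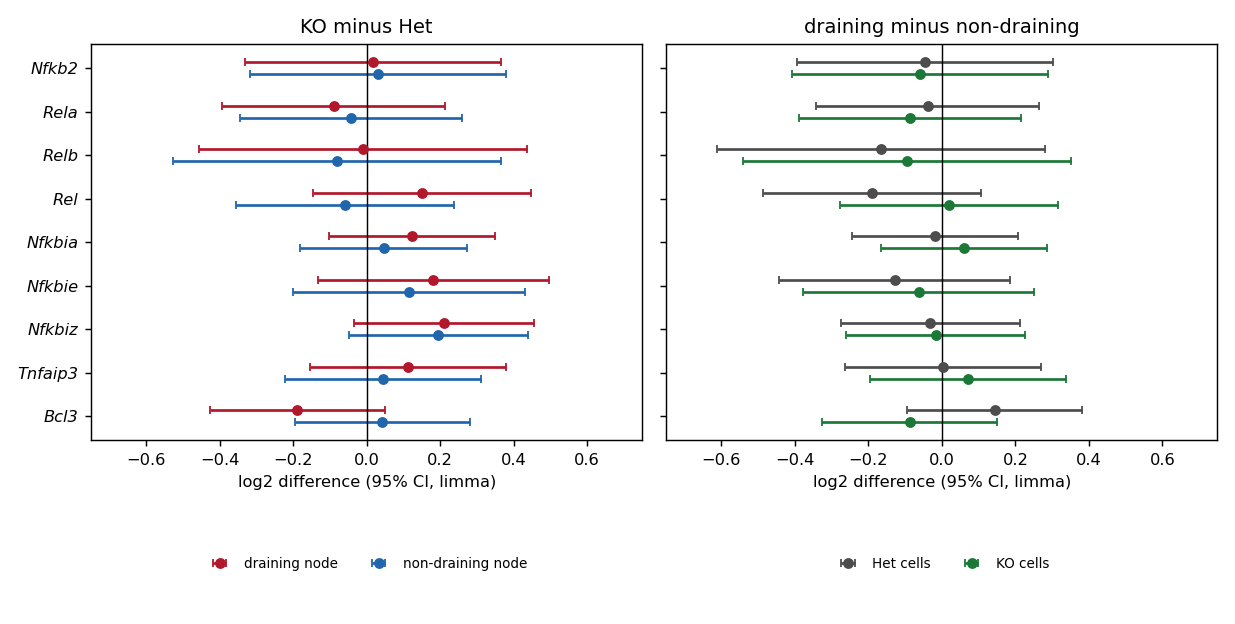
Log2 differences (x axis) of the 9 members with 95% intervals from limma, KO minus Het in each node on the left and draining minus non-draining in each genotype on the right. All intervals cross 0, including Nfkbiz in the draining node (0.21 ± 0.12, SE) and Bcl3 (-0.19 ± 0.11).

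The second question was whether the genes differed between the draining and the non-draining node. In limma 0 of 9 members passed the adjusted threshold in Het cells and 0 of 9 in KO cells, beside 0% of all genes in both. At an unadjusted p under 0.05 the count was 0 of 9 in both, beside 3.29% of all genes in Het and 2.11% in KO cells. No member had node groups without overlap, beside 2.4% of all genes in Het and 1.44% in KO cells. The members' median difference was -0.04 in Het and -0.06 in KO cells, and 0.008 and 0.002 over all genes.

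In Het cells, Rel read 3565, 3041, 2637 and 2909 for draining arrays and 3776, 3842, 3154 and 3088 for non-draining ones. Of the 4 draining arrays, 3 were below every non-draining array, and the difference was -0.19 ± 0.14 (log2, SE). Same-numbered Het arrays of the nodes deviated together, and with the number as a replicate block the error was 0.09 (adjusted p = 1 in limma). Rel and Relb were lower in the draining array in 4 of 4 such pairs, as were 6.14% of all genes. For Relb the difference was -0.17 ± 0.21, and ± 0.15 with the block. All 11 T cell markers were also lower in the draining Het arrays, with a median of -0.41, and 0 had an unadjusted p under 0.05 in limma. So were 8 of 10 macrophage and monocyte and 6 of 7 cDC2 markers, with medians of -0.09 and -0.21. The part of these lists was not tested. Bcl3 differed by 0.14 ± 0.11 in Het cells, and by 0.02 without Het draining array 4. In KO cells all 9 differences were smaller than their standard errors, from -0.09 ± 0.21 for Relb to 0.07 ± 0.13 for Tnfaip3. Over both genotypes the count of members was 0 at the adjusted threshold and 0 at the unadjusted one, beside 0% and 3.06% of all genes.

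The interaction, the genotype difference in the draining node minus that in the non-draining node, was also 0 of 9 at both thresholds in limma, beside 0% and 2.32% of all genes. For Nfkbiz it was 0.01 ± 0.16 (log2, SE), with a 95% interval from -0.33 to 0.36. The largest in either direction were -0.23 ± 0.16 for Bcl3, or -0.11 without Het draining array 4, and 0.21 ± 0.20 for Rel, or 0.10 without KO draining array 2. All 11 T cell markers had a positive interaction, with a median of 0.69. Of 16 cDC1 markers, 14 had a negative interaction and 2 a positive one, with a median of -0.19. The part of both lists in the members' values was not tested.

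The order of the group means differed between members, and in the orders given here neighbours differed by less than the larger of their SDs. For Nfkbiz the order was KO non-draining (388 ± 24.0), KO draining (385 ± 49.4), Het non-draining (338 ± 14.9) and Het draining (334 ± 49.6), as mean intensity ± SD over 4 arrays. Both KO groups came before both Het groups. For Rel the order was Het non-draining (3465 ± 399), KO draining (3411 ± 717), KO non-draining (3321 ± 325) and Het draining (3038 ± 389). For Relb it was Het non-draining (1329 ± 207), KO non-draining (1255 ± 192), KO draining (1219.5 ± 395) and Het draining (1186 ± 201).

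The extreme values were spread unevenly over the arrays. KO draining array 1 was the highest of the 16 arrays for 6 members: Nfkb2, Rela, Relb, Nfkbia, Nfkbie and Tnfaip3. KO draining array 2 was the lowest for Relb and Nfkbia and the highest for Rel. KO draining array 3 was the lowest for Rela and Tnfaip3 and the highest for Nfkbiz. Het draining array 1 was the lowest for 3 members: Nfkb2, Nfkbie and Nfkbiz. Over all genes KO draining array 2 had the lowest mean correlation with the other arrays, 0.942, against 0.963 to 0.977 for the others. Markers of migratory dendritic cells had their highest mean log2 level in KO draining array 1 (10.60) and their lowest in KO draining array 2 (9.72). Of these markers, Ccr7, Fscn1 and Ccl22 are also in the list of NF-kappaB target genes, so the lists overlap. The part of migratory dendritic cells in the spread was not tested. Leaving out KO draining arrays 1 and 2 was an alternative chosen after seeing the data. The median difference of the members in the draining node was then -0.02, Nfkbiz was 0.32 ± 0.13 (log2, SE), and 0 of 9 passed.

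The members were also described by array number, with group as a covariate. That arrays 3 and 4 part from arrays 1 and 2 over many genes was known from earlier results, so this contrast describes these arrays. Rel was lower in arrays 3 and 4 by limma, and it was the only member past the adjusted threshold: 1 of 9 members, beside 11.1% of all genes. The unadjusted p was under 0.05 for 3 of 9 members, with Rel and Tnfaip3 lower and Relb higher, beside 28.5% of all genes.

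For Rel the mean intensity was 3648 ± 177 in arrays numbered 1, 3700.4 ± 489 in 2, 2924 ± 284 in 3 and 2961 ± 88.2 in 4 (SD, n = 4 groups). In each of the 4 groups both arrays 3 and 4 were below both arrays 1 and 2. A separation the same way in all 4 groups was seen for 4.29% of all genes. The difference was -0.32 ± 0.07 (log2, SE), with an adjusted p of 0.00891 in limma. It was -0.51 in KO draining cells and from -0.29 to -0.22 in the other groups. In the F test over the 4 numbers, which does not use the split, the p of Rel in limma was 0.00253 before and 0.0602 after adjustment, and 0 of 9 members passed, beside 3.36% of all genes.

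Relb went the other way. Its mean intensity was 1283 ± 267, 947 ± 165, 1378 ± 151 and 1380.5 ± 32.4 in arrays numbered 1 to 4 (SD, n = 4 groups). Array 2 was the lowest of its group in all 4 groups, but in Het draining cells it nearly equalled array 1 (1012.15 against 1012.33). Arrays 3 and 4 were above 1 and 2 in 3 of the 4 groups. In KO draining cells they overlapped, since array 1 was the highest. The difference was 0.34 ± 0.11 (log2, SE) with an adjusted p of 0.0517 in limma, just over the threshold, and without KO draining array 1 it was 0.44 with an adjusted p of 0.0034. Leaving out Het draining array 2 also took Relb past the threshold (adjusted p = 0.0345 in limma), while without KO draining array 2 it was 0.26. Over all alternatives its adjusted p reached 0.131. Nfkb2 differed by 0.19 ± 0.11, by 0.10 without Het draining array 1, and by 0.30 without KO draining array 1. Its adjusted p in limma ran from 0.0248, without KO draining array 1, to 0.608, and 3 of 9 members passed without that array.

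Tnfaip3 had mean intensities of 2202 ± 351, 2137 ± 193, 1853 ± 169 and 1926 ± 137 in arrays 1 to 4 (SD, n = 4 groups). The difference was -0.19 ± 0.08 (log2, SE; adjusted p = 0.132 in limma). Arrays 3 and 4 were below 1 and 2 in both draining groups and overlapped with them in both non-draining groups. Nfkbia and Nfkbie differed by 0.01 ± 0.08 and 0.03 ± 0.10.

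**Figure D4:**
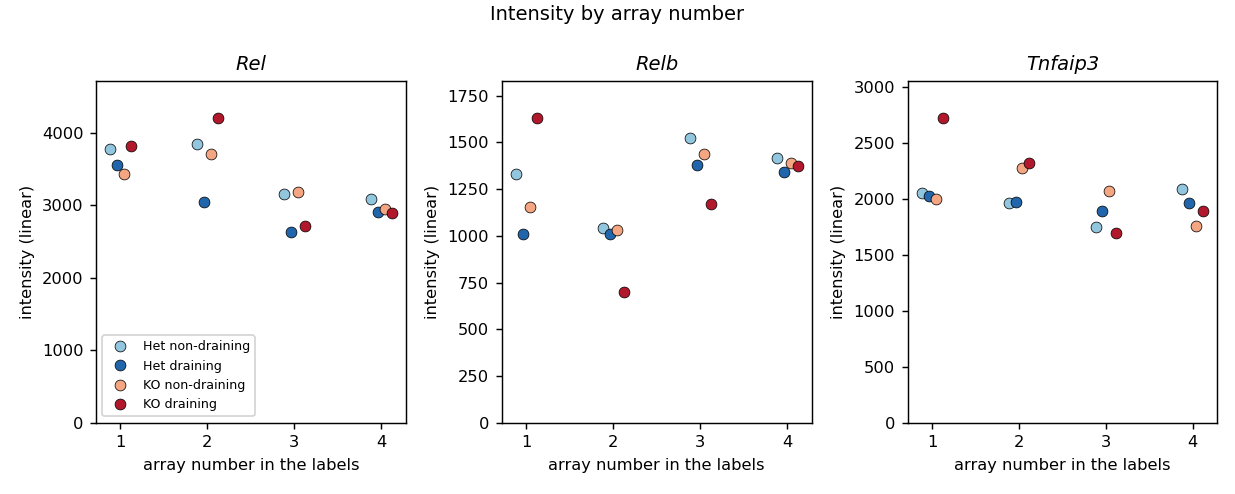
Intensity on a linear scale (y axis) of Rel, Relb and Tnfaip3 by array number in the labels (x axis), 1 point per array, coloured by group. Rel is lower in arrays 3 and 4 (means 2924 and 2961) than in arrays 1 and 2 (3648 and 3700.4), and Relb is lowest in arrays numbered 2 (947).

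Markers of other cells moved with the array number as well. All 11 measured T cell markers were higher in arrays 3 and 4, with a median difference of 0.54 (log2) and 5 past the adjusted threshold in limma. Their mean log2 level ran from 6.32 to 7.61 in arrays 1 and 2 and from 6.82 to 7.65 in arrays 3 and 4. Of 8 migratory dendritic cell markers 7 were higher, with a median of 0.21, and 2 passed. Their level ran from 9.72 to 10.60 in arrays 1 and 2 and from 10.32 to 10.45 in arrays 3 and 4. Of 16 cDC1 markers 12 were lower, with a median of -0.18, and 6 passed. So did 3 of 5 plasmacytoid dendritic cell, 3 of 10 macrophage and monocyte and 1 of 11 B cell markers. Over all genes 11.1% passed. The part of these cells in the Rel and Relb differences was not tested.

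**Figure D5:**
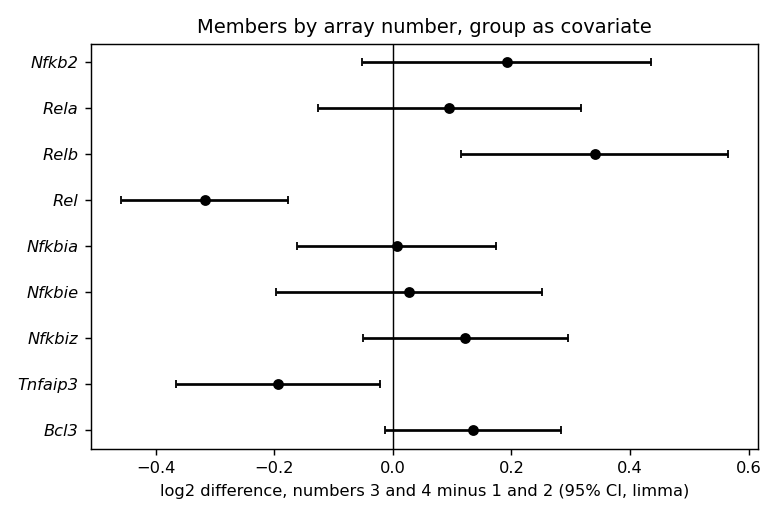
Log2 difference (x axis) between arrays 3 and 4 and arrays 1 and 2 for the 9 members, with group as a covariate and 95% intervals from limma. Rel lies at -0.32 and Relb at 0.34, and the intervals of Rel, Relb and Tnfaip3 exclude 0.

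The genes whose log2 values followed each member most closely were ranked by Pearson r over the 16 arrays, among 9968 genes above the median level. These arrays share groups, numbers and cell composition, so the ranking is a description. Nfkb2 was followed by Traf1 (r = 0.914), Slc4a2 (0.910) and Arc (0.909). Relb was followed by Slc4a8 (0.964), Arc (0.948) and Sdf4 (0.947), and Rela by Ssh1 (0.888), Bsdc1 (0.878) and Tyk2 (0.858). Rel was followed by Pde4b (0.945), Vgll2 (0.932) and Rab11fip1 (0.901), none of which was listed for another member. Arc was the only gene found for 2 members. Nfkbia was followed by Stx6 (0.841), Nfkbie by Edc3 (0.852), Tnfaip3 by Ddx6 (0.891) and Bcl3 by Tgm2 (0.810), each with lower values for the next genes.

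Nfkbiz was followed by Pea15a (0.915), Zfp36 (0.888) and Fos (0.869). Between members, Nfkb2 went with Rela (r = 0.850), Relb (0.802) and Nfkbie (0.778), and Rel with Tnfaip3 (0.697). Rel and Relb were at -0.481. KO draining arrays 1 and 2 hold the extremes of several of these genes.

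The other genes of the pathway were counted by role from lists. Between draining KO and Het cells, 0 genes of any of these lists passed the adjusted threshold in limma, and 0% of all genes did. Among 12 other IkappaB-like genes and regulators of NF-kappaB, 3 were higher and 9 lower, with a median of -0.07 (log2). Among 31 of 35 kinases, adaptors and ubiquitin enzymes, 14 were higher and 17 lower, with a median of -0.03. Among 14 of 16 receptors 5 were higher and 9 lower, with a median of -0.07. All 10 ligands were higher, with a median of 0.25, and none had an unadjusted p under 0.05. T cells also express Lta, Ltb and Cd40lg of this list, and T cell markers were higher there in 10 of 11 cases, with a median of 0.28. Among non-draining cells 6 ligands were higher and 4 lower, with a median of 0.12, and all 11 T cell markers were lower, with a median of -0.38. Their part was not tested. Of 36 of 37 target genes 18 were higher and 18 lower.

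The receptor with the smallest p was Tnfrsf9, which encodes the co-stimulatory receptor 4-1BB. Its KO minus Het difference was -0.62 ± 0.22 (log2, SE) in draining and -0.76 ± 0.22 in non-draining cells. Over both nodes it was -0.69 ± 0.15, and its adjusted p in limma was 1 (unadjusted 0.000334). Among the targets, Ptgs2, the inducible cyclooxygenase, differed by 0.82 ± 0.22 and the chemokine gene Ccl3 by 0.69 ± 0.27 in the draining node. Cxcl10, which encodes a chemokine for effector T cells, differed by 0.67 ± 0.17 in the non-draining node, and its interaction was -0.93 ± 0.25. In that node Cxcl9 differed by 0.40 ± 0.17 and Csf1 by -0.36 ± 0.15. At an unadjusted p under 0.05 in limma, 2 of 36 targets were higher and 0 lower in draining cells, beside 3.39% of all genes. In non-draining cells 2 were higher and 1 lower, beside 2.48%. None of these passed after adjustment. Among the kinases and adaptors, Traf5 differed by -0.55 ± 0.24 and Irak2 by 0.25 ± 0.10 in the draining node. Among the other IkappaB-like genes and regulators, Tnip2 differed by -0.26 ± 0.11 in the non-draining node.

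In the array number contrast the same lists had more calls, as had all genes. In limma 2 of the 12 other IkappaB-like genes and regulators and 4 of 31 kinases and adaptors passed. So did 7 of 14 receptors, 4 of 10 ligands and 9 of 36 targets, beside 11.1% of all genes. Birc2, which encodes the ubiquitin ligase cIAP1 that keeps the alternative pathway off, was higher in arrays 3 and 4 by 0.80 ± 0.13 (log2, SE; adjusted p = 0.0029 in limma). Traf2, its partner in that complex, was higher by 0.58 ± 0.12 (adjusted p = 0.00901 in limma). Tlr3, the receptor for double-stranded RNA and a cDC1 marker, was lower (-0.81 ± 0.11, adjusted p = 0.00104 in limma). Ltb, a lymphotoxin subunit gene that T cells also express, was higher by 0.60 ± 0.16, and the chemokine gene Ccl17, which maturing dendritic cells express, by 0.85 ± 0.10. Cd80, a co-stimulatory ligand in the list of targets, was lower (-0.51 ± 0.09, adjusted p = 0.00429 in limma).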

How the data were processed

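The values are the deposited RMA intensity of 16 Affymetrix arrays (35556 probe sets) on a linear scale, between 3.327 and 16300.089. The submitters' processing notes name RMA, with software not given in the sources used here. It gives arrays a common distribution, which removes shifts shared by all genes. Array brightness is no read depth, so the number of arrays limits the precision.

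Probe sets with 1 symbol in the platform annotation (21789, against 1621 with several and 12146 with none) were matched by gene ID to RefSeq GRCm38.p6 (21698 matched). The brightest probe set stood for a gene. Values were tested two-sided as log2(intensity + 1) with limma 3.58.1 in R 4.3.3: 1 fit of 4 groups, 12 residual degrees of freedom, Benjamini-Hochberg over 19938 genes, threshold 0.05. The array number contrast added the number as a factor. The script was tested on simulated data. Plots used matplotlib 3.10.9.

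The members, lists and the split by number were chosen with earlier results of these data known. The text names every member, up to 3 genes per list and comparison with an unadjusted p under 0.05, and 3 genes of highest r per member. The exact permutation p is given for the member whose groups do not overlap, where it follows from that order.

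Same-numbered Het arrays of the 2 nodes deviated together from their group means (r from 0.234 to 0.396 in 4 of 4 pairs). Of these 8 arrays, 6 were closest to the array of their own number. Same-numbered arrays that differed in both genotype and node also deviated together (median r 0.233, 6 of 8 pairs above 0.1). The r values therefore do not show that a number stands for nodes of the same mouse. For the other simple comparisons 2 or 3 of 4 pairs were above 0.1. Alternatives were the added 1, a filter on dim genes, the mean of probe sets, quantile normalization, array weights, an intensity trend, number blocks, number subsets and leaving out each array.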

Additional observations from a re-analysis of the deposited data

Results flagged for a closer look

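In the 36 sets of 4 arrays that the 9 members form over the 4 groups, 1 array stood apart by Dixon's criterion, where chance gives about 5% of sets. Nfkbiz read 312 in KO draining array 2 (311.697 in the deposited values), while the other KO draining arrays read 402 to 416. The gap was 0.866 of the range. This is the array with the lowest mean correlation with the others, 0.942. Without it the KO minus Het difference of Nfkbiz in the draining node was 0.31 (log2) in place of 0.21.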

How the results depend on the processing

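Of the members' differences, the 19 larger than their standard error kept their sign under the up to 26 alternatives planned for them, and 4 of them were called in some alternative. Of the 53 smaller ones, 43 changed sign in at least 1. Without KO draining arrays 1 and 2, added after seeing the data, Rel in KO against Het draining cells turned to -0.11. With arrays 3 and 4 alone the median of the members was -0.10 in KO against Het draining cells and -0.11 in the interaction, and KO against Het gave 4 genes called in draining cells, 2 in non-draining cells and 5 over both, and the nodes in KO cells 1. With arrays 1 and 2 alone the median was 0.11 between nodes in KO cells and 0.24 in the interaction. The cause was not tested. The number as a fixed replicate block gave 1 gene called in KO against Het over both nodes, against 0 without it, and 0 members; Nfkbiz there kept 0.20 with an adjusted p of 0.852 in limma. Blocking changed no other call.

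In the array number contrast 2 members were called with genes above the median only, quantile normalization, array weights or an intensity trend, and 1 to 3 when 1 array was left out. The genes called then ran from 1281 (without KO draining array 4) to 3019 (without Het draining array 2). Rel stayed called, at an adjusted p of 0.00415 to 0.0259. Relb was called in 5 alternatives and Tnfaip3 under quantile normalization (adjusted p = 0.038 in limma). With 4 arrays a group, the members' standard errors in the simple comparisons were 0.11 to 0.21 (log2), and no difference of that size passed.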
